A study of Homo sapiens with 4 samples.

Results

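The genes described here are the 10 of the AP-1 and immediate early group that were named for this account: the FOS family genes FOS, FOSB, FOSL1 and FOSL2, the JUN family genes JUN, JUNB and JUND, the ATF family gene ATF3, and the zinc finger genes EGR1 and EGR3. They were taken from the array annotation by symbol, and all 10 were found, each with 1 probe, among 14679 genes with a named probe and 38598 probes in all. Gene expression was profiled in T47D cells, an established human ER+ breast ductal carcinoma line, infected with virus encoding FDXR sh434, which carries a hairpin directed at transcripts of the mitochondrial ferredoxin reductase, or shControl, the control hairpin. Both groups were grown in RPMI-1640 with fetal bovine serum, and each group has 2 samples that are labelled as biological replicates, whose cultures are not further described, so the p-values measure the spread between these samples. The labels name a retrovirus and the study's methods a lentivirus followed by antibiotic selection. The knockdown rests on 1 hairpin, so its effect on FDXR and on other transcripts cannot be told apart. In the source names, 3 of the arrays carry cell line names other than T47D, although the growth protocol of all 4 names T47D.

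The values are log2 signals of Affymetrix arrays, with array medians between 4.76 and 4.78. The level of FDXR itself was not analysed here, since no probe is named for it. Of 15 luminal markers such as GATA3 and KRT18, 12 were measured. Their mean log2 signal was 9.37 to 9.38 on the FDXR sh434 arrays and 9.38 to 9.39 on the shControl arrays. The 5 measured basal or mesenchymal markers averaged 3.97 to 4.09 on the FDXR sh434 arrays and 4.05 to 4.11 on the shControl arrays, and the 5 measured immune or endothelial markers averaged 4.54 to 4.66 and 4.34 to 4.49 on the same arrays. In limma, 0 genes of these 3 lists passed an adjusted p of 0.05. Before adjustment, 2 luminal markers were higher and 2 lower with p under 0.05. Among basal or mesenchymal markers 0 were higher and 0 lower, and among immune or endothelial markers 1 was higher and 0 lower. With the spread fitted to the signal 2 luminal markers were higher and 1 lower, the last being the progesterone receptor gene PGR. Of all probes 9.44% were higher and 7.82% lower before adjustment, and 5.02% higher and 3.41% lower with the fitted spread.

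AP-1 is a family of dimers of basic leucine zipper proteins. JUN proteins pair with each other or with FOS proteins, FOS proteins need a JUN partner, and the dimers bind the DNA motif TGANTCA. ATF proteins pair with JUN proteins on the cyclic AMP response element (CRE), TGACGTCA. FOS, FOSB, JUN, JUNB, EGR1 and EGR3 are classical immediate early genes, which growth factors, serum and stress switch on within minutes through MAP kinases, and their RNAs are short-lived. In breast cancer cells the estrogen receptor can act at AP-1 sites by contact with FOS and JUN proteins.

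The promoters of the 3 JUN genes are shown because JUND had the largest change of the 10 genes and JUN and JUNB are its closest relatives. Each sequence is from RefSeq (GRCh38.p14), runs 5′ to 3′ along the gene and covers 250 bases before to 50 bases after the annotated start. Capitals mark matches on either strand to TGANTCA, to TGACGTCA, to its first 5 bases TGACG, or to TGACATCA, a variant described in the JUN promoter, and matches may overlap.
JUND promoter, chr19:18281573-18281872, minus strand: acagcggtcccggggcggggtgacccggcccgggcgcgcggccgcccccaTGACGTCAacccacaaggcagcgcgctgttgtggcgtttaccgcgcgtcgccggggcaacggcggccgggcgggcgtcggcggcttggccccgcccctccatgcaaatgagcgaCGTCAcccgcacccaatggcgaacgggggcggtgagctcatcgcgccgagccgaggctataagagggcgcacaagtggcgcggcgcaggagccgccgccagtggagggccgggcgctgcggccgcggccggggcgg
JUN promoter, chr1:58783998-58784297, minus strand: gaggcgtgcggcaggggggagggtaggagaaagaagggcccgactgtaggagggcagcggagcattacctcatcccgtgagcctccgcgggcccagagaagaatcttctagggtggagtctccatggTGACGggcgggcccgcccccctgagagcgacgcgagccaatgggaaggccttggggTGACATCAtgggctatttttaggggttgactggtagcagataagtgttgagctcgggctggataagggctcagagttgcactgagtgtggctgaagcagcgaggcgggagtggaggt
JUNB promoter, chr19:12791236-12791535, plus strand: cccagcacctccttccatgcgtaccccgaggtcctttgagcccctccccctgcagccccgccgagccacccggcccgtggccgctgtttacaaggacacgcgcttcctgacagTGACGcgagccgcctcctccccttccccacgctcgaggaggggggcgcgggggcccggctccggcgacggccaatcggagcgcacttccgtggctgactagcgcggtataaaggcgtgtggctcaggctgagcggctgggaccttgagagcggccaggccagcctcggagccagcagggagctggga
The JUND window holds 1 whole CRE motif, TGACGTCA, which 1.85% of 35116 promoters of the same length hold, and it is the only window with this motif among the promoters of 8 of the genes, all but FOSL1 and EGR3. It also holds 6 matches to GGGCGG, the GC box, which 45.0% of all promoters hold at least a single time, and its GC content is 77.0%, against a median of 58.7% over all promoters. TGACATCA is in the JUN and ATF3 windows and in 2.61% of all promoters. TGACG is in the windows of all the 8 members but ATF3 and in 24.6% of all promoters. The core of the serum response element, the site at which SRF acts, is found 2 times in the EGR1 window, 0 times in the other 7 and in 1.29% of all promoters. TGANTCA is found only in the FOSL2 window, and in 7.71% of all promoters. These matches describe letters in a window and were not tied to the measured changes. Bases outside the window were not searched, so 0 matches does not mean that a gene lacks a site.

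None of the 10 genes passed limma at an adjusted p of 0.05 over all 38598 probes, a threshold that 0.298% of probes passed as higher and 0.402% as lower in FDXR sh434 cells. At an unadjusted p under 0.05, 1 of the 10 was higher, JUND, and 0 were lower, against 9.44% of all probes higher and 7.82% lower. JUND stood closest to the threshold, with a 1.85-fold higher signal in FDXR sh434 cells, while the differences of the other 9 genes were all under 0.5 on the log2 scale. When limma let the spread between arrays follow the signal, with robust estimation, JUND was the only 1 of the 10 that passed, against 5.02% of probes called higher and 3.41% called lower. The log2 fold changes of the 10 genes had a median of 0.106, against 0.00413 over all probes and 0.0285 over named probes, with 7 positive and 3 negative, and 50.8% of all probes were positive. Both FDXR sh434 arrays lay above both shControl arrays for 5 of the genes (JUND, JUN, ATF3, FOSL2 and FOSB) and for 25.6% of all probes, and below them for 0 of the genes and for 23.1% of all probes.

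**Figure D1:**
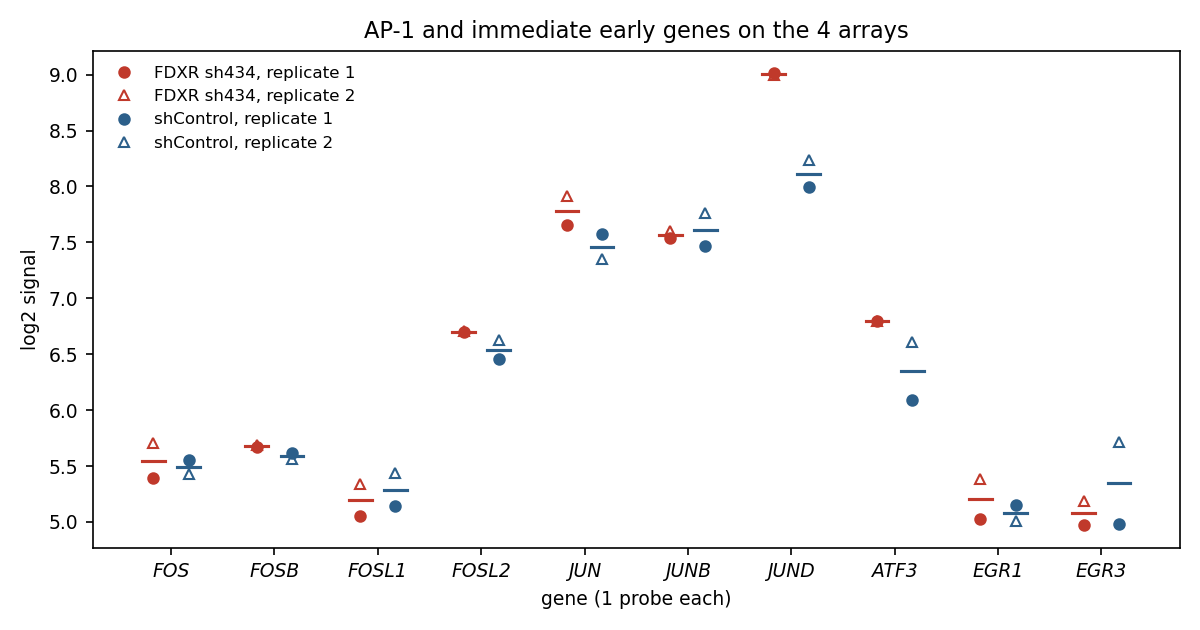
Log2 signal of the 10 genes on the 4 arrays, with circles for replicate 1, triangles for replicate 2 and a line at the mean of each group; FDXR sh434 is left of shControl for each gene, and heights of different genes are not comparable, since each probe responds in its own way. The FDXR sh434 arrays of JUND, at 9.011 and 8.992, lie clear of the shControl arrays, at 7.991 and 8.232, while the groups of FOS, FOSL1, JUNB, EGR1 and EGR3 overlap.

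Among the JUN family genes, JUND (probe 16870384) encodes a subunit that many resting cells express steadily and that slows growth in mouse fibroblasts. Its log2 signal was 9.011 and 8.992 on the FDXR sh434 arrays, against 7.991 and 8.232 on the shControl arrays. The groups did not overlap, and the gap of 0.761 between the nearest arrays of the groups was more than the 0.241 between the shControl arrays and the 0.0191 between the FDXR sh434 arrays. The means were 9.002 ± 0.0135 in FDXR sh434 cells and 8.11 ± 0.171 in shControl cells (SD, n = 2 arrays each). The log2 fold change was 0.89 with a 95% interval of 0.58 to 1.20. Adjusted over all probes, the limma p was 0.0546, just above the threshold of 0.05, and 0.000332 with the spread fitted to the signal. At JUND's standard error of 0.124, a log2 fold change of 0.98 would have been needed for a call in the limma fit without a trend. Its size ranked 411 of 38598 probes. The RNA came from whole cultures, so more RNA per cell and more cells that express the gene cannot be told apart.
JUN (probe 16687875), the founding AP-1 subunit, had log2 signals of 7.653 and 7.910 in FDXR sh434 cells, against 7.578 and 7.347 in shControl cells. All of the FDXR sh434 values were higher, but the nearest arrays of the groups were only 0.0756 apart, less than the 0.257 between the FDXR sh434 arrays. The JUN log2 fold change was 0.32 with a 95% interval of -0.04 to 0.68 (adjusted p = 0.342 from limma, and 0.129 with the spread fitted to the signal). It was 0.19 without FDXR sh434 replicate 2, 0.20 without shControl replicate 2, 0.45 without FDXR sh434 replicate 1 and 0.44 without shControl replicate 1.
JUNB (probe 16858710), which can replace JUN in dimers as a weaker activator, had log2 signals of 7.538 and 7.599 in FDXR sh434 cells and of 7.470 and 7.758 in shControl cells. The FDXR sh434 values lay between the shControl values. The log2 fold change was -0.05 with a 95% interval of -0.38 to 0.29 (adjusted p = 0.898 from limma). Fold changes from 0.767 to 1.22 thus lay within the JUNB interval. JUNB overlaps the gene HOOK2 in the annotation, and the sources used here do not give whether the probes tell strands apart.

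**Figure D2:**
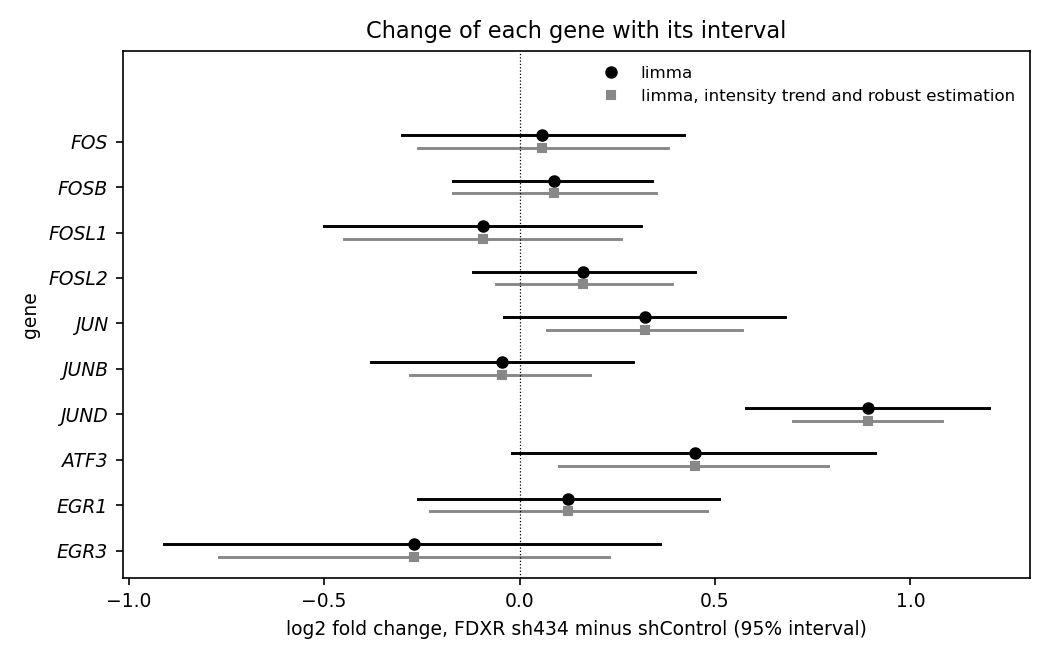
Log2 fold change of each gene, FDXR sh434 minus shControl, with its 95% interval from limma (black circles) and from limma with an intensity trend and robust estimation (grey squares). The black interval of JUND, 0.58 to 1.20, is the only black interval that leaves out 0, and EGR3 has the widest, -0.91 to 0.36. The grey intervals of JUN, 0.07 to 0.57, and ATF3, 0.10 to 0.79, leave out 0 as well, though neither gene passed after adjustment.

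The FOS family genes encode partners that bind DNA only as dimers with JUN proteins. FOS (probe 16786587) had log2 signals of 5.390 and 5.704 in FDXR sh434 cells, against 5.550 and 5.428 in shControl cells, and the groups overlapped. Its log2 fold change was 0.06, with a 95% interval of -0.30 to 0.42 (adjusted p = 0.875 from limma). FOSB (probe 16863287), which also gives rise to the long-lived spliced form known as delta FosB, had log2 signals of 5.672 and 5.684 in FDXR sh434 cells and of 5.619 and 5.562 in shControl cells. The FOSB arrays of the groups did not overlap, but the log2 fold change was only 0.09, with a 95% interval of -0.17 to 0.34 (adjusted p = 0.714 from limma), and 0.06 to 0.12 without 1 array.
The other pair of FOS family genes encodes FRA1 and FRA2, which lack the strong activation domain of FOS. FOSL1 (FRA1, probe 16740630) had log2 signals of 5.055 and 5.338 in FDXR sh434 cells and of 5.139 and 5.442 in shControl cells. These groups overlapped, with a log2 fold change of -0.09 and a 95% interval of -0.50 to 0.31 (adjusted p = 0.813 from limma). FOSL2 (FRA2, probe 16878443) had log2 signals of 6.696 and 6.708 in FDXR sh434 cells and of 6.453 and 6.627 in shControl cells. Its groups did not overlap, with the nearest arrays 0.0698 apart and a log2 fold change of 0.16 with a 95% interval of -0.12 to 0.45 (adjusted p = 0.525 from limma). Without 1 array the FOSL2 value ranged from 0.08, without shControl replicate 1, to 0.25, without shControl replicate 2. FOSL2 overlaps the antisense gene FOSL2-AS1 in the annotation. All 4 intervals hold 0.

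ATF3 (probe 16677278), a stress-induced partner and repressor that is switched on by amino acid shortage, unfolded proteins and DNA damage, had the second largest log2 fold change among the 10 genes. Its log2 signal was 6.797 and 6.793 in FDXR sh434 cells, against 6.088 and 6.605 in shControl cells. Both FDXR sh434 arrays were higher, but the shControl arrays differed from each other by 0.517, more than the 0.188 between the nearest arrays of the groups. The ATF3 log2 fold change was 0.45 with a 95% interval of -0.02 to 0.91 (adjusted p = 0.305 from limma, and 0.124 with the spread fitted to the signal). It depended on the shControl arrays, and was 0.19 without shControl replicate 1 and 0.71 without shControl replicate 2. ATF4, the activator of ATF3 in the integrated stress response, had log2 signals of 8.909 and 8.887 in FDXR sh434 cells and of 8.767 and 8.740 in shControl cells (log2 fold change 0.14, adjusted p = 0.525 from limma).

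The EGR genes encode zinc finger factors that bind GC-rich sites and are induced by the ERK pathway. EGR1 (probe 16989736) had log2 signals of 5.025 and 5.383 in FDXR sh434 cells, against 5.148 and 5.013 in shControl cells. The groups overlapped, and the EGR1 log2 fold change was 0.12 with a 95% interval of -0.26 to 0.51 (adjusted p = 0.733 from limma). EGR3 (probe 17075395), an estrogen-responsive gene in breast cancer cells, had log2 signals of 4.971 and 5.186 in FDXR sh434 cells and of 4.981 and 5.718 in shControl cells. EGR3 overlaps the gene LOC107986924 in the annotation. The shControl arrays of EGR3 differed by 0.737, the largest difference within a group among the 10 genes, and the FDXR sh434 arrays lay nearer to the lower of them. Its log2 fold change was -0.27 with a 95% interval of -0.91 to 0.36 (adjusted p = 0.641 from limma). It was 0.10 without shControl replicate 2 and -0.64 without shControl replicate 1.
For a call in the limma fit without a trend, a log2 fold change of 0.80 for FOSB up to 2.001 for EGR3 would have been needed at the genes' own standard errors. Smaller changes would not have passed in that fit. Other fits have other limits, and JUND, at 0.89, passed with the trend. The probes of all 10 genes were at or above the median signal of all probes, but whether each was above background is unknown, since no detection values were used.

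**Figure D3:**
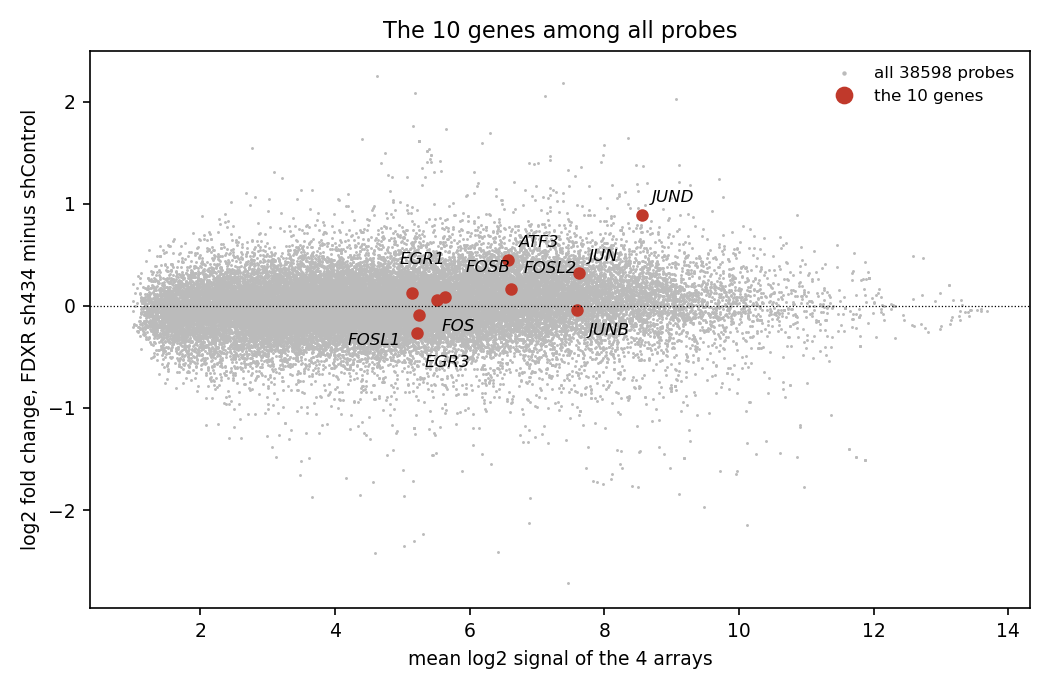
Log2 fold change, FDXR sh434 minus shControl, against the mean log2 signal of the 4 arrays for all 38598 probes (grey) and the 10 genes (red). JUND, at 0.89, lies at the edge of the cloud at its signal, and the other 9 lie within it, between -0.27 and 0.45.

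Related genes were read from the same fit. Of 161 genes in 5 lists, 93 were measured with a named probe, and in limma 2 were higher, 0 were lower and the rest did not pass, and these lists were chosen with earlier results of these data known. With the spread fitted to the signal 14 were higher and 6 lower, where 5.02% of all probes were higher and 3.41% lower. All probes include dim and unnamed ones, so these shares are not matched to the 5 lists in signal. With the trend on the 19299 probes at or above the median signal alone (added after seeing the data), 2473 probes were higher and 1493 lower. In that fit 20 of the related genes were higher and 5 lower, counted only among related genes at or above the median signal. How many of the 93 these are was not counted, so the counts are not shares of the 93. The genes that passed limma were IVL and DUSP10. Neither passed without a trend once the replicate number entered the model, where 0 probes were called.
Among the upstream kinases and factors that switch on immediate early genes, 23 of 40 were measured, with a median log2 fold change of 0.168. In limma 0 passed (7 higher and 0 lower with p under 0.05 before adjustment), and with the spread fitted to the signal 5 were higher and 0 lower. Over all probes 9.44% were higher and 7.82% lower before adjustment, and 5.02% higher and 3.41% lower with the fitted spread. The 5 genes were MAPK7 (ERK5) at 0.48, ATF2, a JUN partner that binds the CRE, at 0.38, the p38 kinase gene MAPK13 at 0.33, the transcription factor gene MEF2D at 0.32 and the SRF coactivator gene MRTFB at 0.27 (adjusted p = 0.0121, 0.0151, 0.0278, 0.0473 and 0.0238 with that spread). ARAF, a RAF kinase gene that did not pass, had a log2 fold change of 0.10 (adjusted p = 0.707 from limma).

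MAPK phosphatases switch MAP kinases off. They were listed together with feedback inhibitors, and 15 of 19 genes were measured, with a median log2 fold change of 0.083. At p under 0.05 before adjustment in limma 4 were higher and 4 lower, against 9.44% and 7.82% of all probes. With the spread fitted to the signal 2 were higher and 2 lower, against 5.02% and 3.41% of all probes. DUSP10, a phosphatase of the JNK and p38 kinases, had log2 signals of 7.860 and 7.812 in FDXR sh434 cells, against 6.654 and 6.780 in shControl cells. It rose 2.17-fold (log2 fold change 1.12, standard error 0.108, adjusted p = 0.0287 from limma). It was the only gene of this list that passed limma without the trend. DUSP6, the gene of a cytoplasmic ERK phosphatase, had log2 signals of 5.198 and 4.987 in FDXR sh434 cells, against 5.826 and 5.913 in shControl cells. DUSP4, the gene of a nuclear MAPK phosphatase, had log2 signals of 5.766 and 5.851 in FDXR sh434 cells, against 6.556 and 6.581 in shControl cells. DUSP1, the immediate early phosphatase gene, had log2 signals of 8.133 and 7.988 in FDXR sh434 cells, against 7.489 and 7.513 in shControl cells. These 3 genes had log2 fold changes of -0.78, -0.76 and 0.56, and did not pass limma (adjusted p = 0.0675, 0.0532 and 0.0954), but passed with the spread fitted to the signal. The groups did not overlap for any of them, which held for 48.7% of all probes. ERRFI1, an inhibitor of the EGF receptor, had a log2 fold change of 0.01 (adjusted p = 0.984 from limma).

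Among AP-1 target genes, 19 of 36 were measured, with a median log2 fold change of 0.103. In limma 1 was higher and 0 lower, where 0.298% of all probes were higher and 0.402% lower. At p under 0.05 before adjustment 3 were higher and 1 lower, against 9.44% and 7.82% of all probes. With the spread fitted to the signal 2 were higher and 1 lower, against 5.02% and 3.41% of all probes. IVL, the cornified envelope protein involucrin whose promoter has AP-1 sites in keratinocytes, rose 2.50-fold (log2 fold change 1.32, standard error 0.115, adjusted p = 0.0257 from limma). Its log2 signals were 6.287 and 6.194 in FDXR sh434 cells and 4.840 and 4.998 in shControl cells. None of the other 18 passed. The hyaluronan receptor gene CD44, at 0.63, and FSTL1, at -0.45, passed only with the spread fitted to the signal (adjusted p = 0.00119 and 0.0216), and EZR and HMGA1 had log2 fold changes of 0.19 and 0.04 (adjusted p = 0.441 and 0.886 from limma). The HMGA1 value turned to -0.02 after quantile normalization, and that of ERRFI1 to -0.04.
Of the other AP-1 partners 13 of 21 were measured, with a median log2 fold change of 0.11. In limma 0 passed (2 higher and 1 lower with p under 0.05 before adjustment, against 9.44% and 7.82% of all probes). With the spread fitted to the signal only ATF2 passed, as higher, against 5.02% of all probes higher and 3.41% lower.

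Of 47 other immediate early genes 25 were measured, with 14 positive and 11 negative log2 fold changes and a median of 0.001. In limma 0 passed (4 higher and 3 lower with p under 0.05 before adjustment, against 9.44% and 7.82% of all probes). With the spread fitted to the signal 5 were higher and 3 lower, against 5.02% and 3.41% of all probes. The higher genes were TRIB1, a pseudokinase gene, at 0.69, the polo-like kinase gene PLK2 at 0.66, the zinc finger factor gene KLF6 at 0.57, the small GTPase gene RHOB at 0.42 and the survival gene MCL1 at 0.25. The lower genes were the kinase gene SGK1 at -0.85, IER3 at -0.82 and KLF10, a TGF-beta responsive gene, at -0.33. The SGK1 probe was dim, with log2 signals of 3.709 and 3.662 in FDXR sh434 cells and 4.346 and 4.721 in shControl cells. These values lie below the array medians of 4.76 to 4.78, and whether they were above background is unknown. The log2 signals of IER3 were 8.647 and 8.671 in FDXR sh434 cells, against 9.426 and 9.531 in shControl cells (adjusted p = 0.0512 from limma, and 0.000119 with the spread fitted to the signal). Its 11 probes, several of which carry equal values, gave log2 fold changes between -0.82 and -0.23, and 6 of them passed with the spread fitted to the signal while 5, all at -0.23, did not. The log2 signals of TRIB1 were 7.297 and 7.199 in FDXR sh434 cells, against 6.554 and 6.568 in shControl cells (adjusted p = 0.0627 from limma, and 0.00186 with the spread fitted to the signal).

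**Figure D4:**
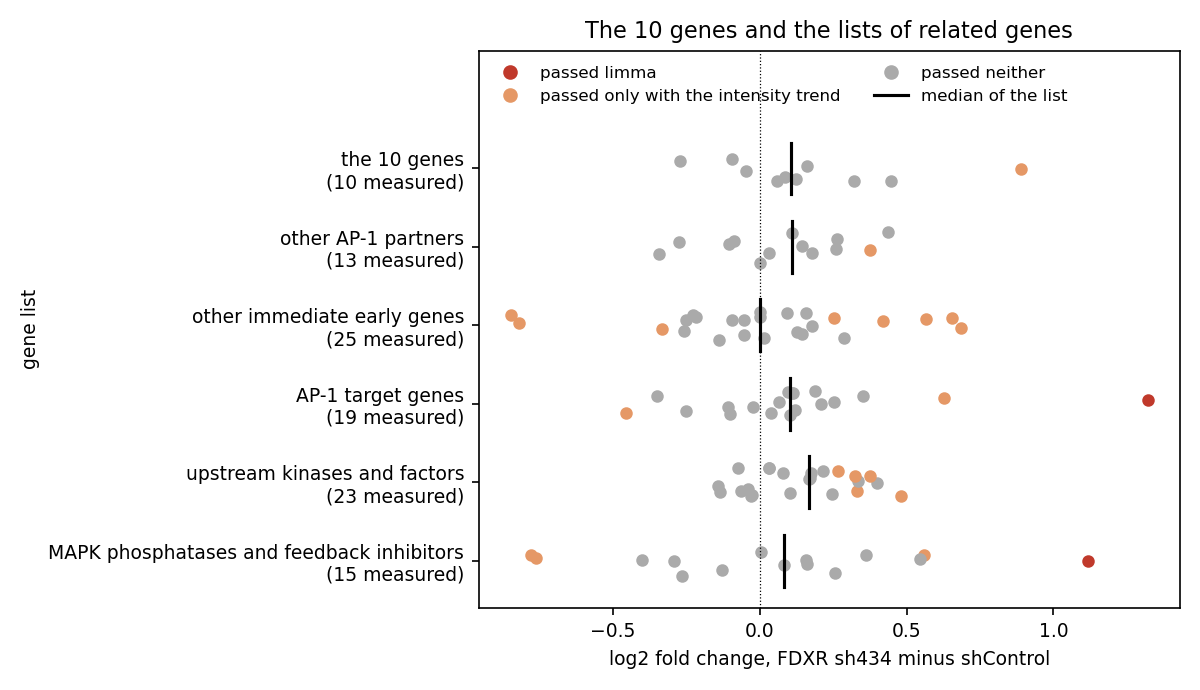
Log2 fold change, FDXR sh434 minus shControl, of every measured gene of the 10 and of the 5 related lists, with a black line at the median of each list; red points passed limma, orange points passed only when the spread followed the signal, and grey points passed neither. The red points are IVL, at 1.32, and DUSP10, at 1.12, and the medians lie between 0.001 and 0.168.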

How the data were processed

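The authors deposited log2 signals of 38598 probes on 4 Affymetrix arrays. The method of array summarisation and normalization is unknown (not given in the sources used here). Of tools, the submitters' processing notes list only limma 3.50.3. Probes were named through the array annotation, 15715 with 1 symbol and 22883 with none, symbols were updated by gene ID, and the brightest probe stood for a gene. FDXR sh434 was compared with shControl in limma 3.58.1 (R 4.3.3; lmFit, eBayes), the package the study's methods name. The model held the condition alone, all 38598 probes entered without a filter or a trend, and p-values were adjusted by Benjamini-Hochberg, with calls at 0.05. The fit had 2 residual and 3.45 prior degrees of freedom. The median residual SD was 0.162 in the dimmest 9650 probes and 0.0728 in the brightest 9650, so an alternative fitted the spread to the signal (intensity trend, robust estimation). The fit was also run on simulated arrays with normal noise, which checks the code and not the calls made here. Related genes were named by a fixed rule: in each list at most 4 past the threshold, the 2 brightest that did not pass, and at most 6 called with the trend. The 10 genes and the lists were chosen with earlier results of these data known. Promoters were searched with Python 3.11.15. The other alternatives were a replicate block, quantile normalization, median centring, leaving out dim probes, adjustment over named probes, array weights and each array left out.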

Additional observations from a re-analysis of the deposited data

How the results depend on the processing

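In limma without a trend the JUND log2 fold change stayed between 0.85 and 0.90 with all arrays used. Its adjusted p was 0.069 after quantile normalization, 0.0501 after median centring, 0.0535 with array weights, 0.0475 over named probes and 0.00785 without probes under the median signal. Without 1 array the JUND log2 fold change ranged from 0.77 to 1.01. Such a fit leaves 1 array in a group, so the spread comes from the other group alone. Its p-values are therefore not given.

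Of the 10 genes, 1 was called higher with the trend, over named probes, without the dim probes, without them and with the trend (added after seeing the data), and with the replicate block and the trend. Without 1 array the log2 fold change ranged from 0.19 to 0.45 for JUN and from 0.19 to 0.71 for ATF3. Each gene has 1 probe, so no other choice of probe could be tried.

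Without 1 array the log2 fold changes changed sign for FOS (-0.10 to 0.22), FOSL1 (-0.25 to 0.06), JUNB (-0.19 to 0.10), EGR1 (-0.06 to 0.30) and EGR3 (-0.64 to 0.10), and among related genes for ERRFI1 (-0.02 to 0.03). After quantile normalization HMGA1 was at -0.02 and ERRFI1 at -0.04.

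Over all probes 1937 were called higher and 1318 lower with the trend, 1546 and 995 without the dim probes, and 2473 and 1493 with both. Without 1 array 0 to 2466 were called higher and 0 to 1656 lower. Among the related genes 14 were higher and 6 lower with the trend, 12 and 4 without the dim probes, 20 and 5 with both. After median centring 1 was lower, and over named probes 2 were lower. Without 1 array 0 to 19 were higher and 0 to 5 lower.

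Nothing in the labels says that a replicate number marks a shared culture or batch, and the deviations of same-numbered arrays correlated by 0.00196 across probes. With the replicate block 0 probes and 0 related genes were called, and the adjusted p was 0.114 for JUND, 0.0677 for IVL and 0.0805 for DUSP10. With the replicate block and the trend 2208 probes were higher and 1517 lower, 18 related genes were higher and 6 lower, and the JUND adjusted p was 3.69e-05. The cause of these differences was not tested. With 2 arrays per group the precision is limited by their number.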
